A study of Mus musculus with 4 samples.

Results

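The 10 genes described here, known from macrophages of the bone marrow, are C1qa, C1qb, C1qc, Vcam1, Adgre1, Cd68, Mertk, Axl, Spic and Hmox1. Their RNA was measured in mouse marrow cells that had been sorted for long-term haematopoietic stem cells, LT-HSCs for short. The genes were taken by symbol, as complement, adhesion, uptake and iron recycling genes of erythroblast island macrophages, and all 10 were found among 51912 Ensembl genes. The series holds 4 libraries, 2 wild-type (WT) and 2 with Fam122a knocked out (Fam122a KO). All are of the C57BL/6 strain at 8 to 12 weeks, and each library is a pool of cells from 3 animals sorted as LSK CD34- FLk2-, that is lineage-negative cells with Sca1 and Kit but without CD34 and Flk2. How the gene was deleted, and in which cells, is not given in the sources used here. The series asks which genes Fam122a, whose protein inhibits the phosphatase PP2A, controls in LT-HSCs. Levels are FPKM, that is fragments per kilobase of transcript, scaled to library size.

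In the marrow, a central macrophage holds maturing erythroblasts around it, takes up the nuclei they expel and clears aged red cells. Such macrophages carry the surface proteins VCAM1 and F4/80 and make the 3 chains of complement C1q. They use the receptors MERTK and AXL to bind dying cells, break down heme with heme oxygenase 1 and need the transcription factor SPI-C. Macrophages are mature cells outside the stem cell gate. In bulk RNA, fewer cells of a type and less RNA per cell cannot be told apart, nor can transcripts of a few macrophages and a low level in the sorted cells.

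Fam122a KO libraries had higher levels than WT replicate 1 of all 3 C1q genes, Adgre1, Axl, Hmox1 and Vcam1, and lower levels of Mertk, Cd68 and Spic (Spic turned to higher with quantile normalization). The ratio of the KO mean to WT replicate 1 ran from 2.95 for Axl down to 0.304 for Mertk. None of the 10 differences passed the test over all genes. With limma on log2(FPKM + 1), 0 of 10 passed an adjusted p of 0.05, 2 had an unadjusted p below 0.05 (C1qb and Mertk), as did 35.1% of all genes tested, and the adjusted p ran from 0.0902 to 0.603. Over all 16580 genes tested, 0.814% passed as higher and 12.9% as lower in KO, so 5.96% of the passing genes were higher, against 24.0% of them with quantile normalization. WT replicate 2 was left out of this fit as a library of poor RNA content and is shown apart, so the spread comes from the KO pair alone and the lone WT library is taken to vary as they do. Both the intervals and the p-values rest on 1.90 degrees of freedom.

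The libraries themselves were uneven. Fam122a was at 18.4 and 7.46 FPKM in WT and listed at 0 in both KO libraries, where 3 fragments would have given 0.726 and 0.831 FPKM. Low values fell on steps that implied depths of 4240000 and 2440000 fragments for WT replicates 1 and 2, and of 6830000 and 5970000 for KO. The median of 79 ribosomal protein genes was 13.1 FPKM in WT replicate 2, against 300 to 436 FPKM in the other 3 libraries, and loci without a gene name held 53.9% of its summed FPKM. Of 16 stem cell markers, all were above 0 in WT replicate 1 and both KO libraries and 3 were at 0 in WT replicate 2. Neutrophil markers summed to 177779 FPKM in WT replicate 1 and to 78342 and 68090.4 FPKM in KO.

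Promoter sequence was found for 6 of the 10 genes in RefSeq (GRCm38.p6). The windows of 4 are shown because they cover both directions: C1qb and Axl, higher in KO, and Mertk and Cd68, lower. Each is the 250 bases before the start, on the gene's own strand, 5′ to 3′. C1qb lies at chr4:136886201-136886450 (minus strand), Axl at chr7:25788734-25788983 (minus), Mertk at chr2:128698665-128698914 (plus) and Cd68 at chr11:69666171-69666420 (minus). Capitals mark matches, on either strand, to GAGGAA (a purine-rich core bound by the PU.1 family, to which SPI-C belongs), TGANTCA (an element bound by AP-1 and BACH1) or TGACNNNGC (the antioxidant response element core).
C1qb: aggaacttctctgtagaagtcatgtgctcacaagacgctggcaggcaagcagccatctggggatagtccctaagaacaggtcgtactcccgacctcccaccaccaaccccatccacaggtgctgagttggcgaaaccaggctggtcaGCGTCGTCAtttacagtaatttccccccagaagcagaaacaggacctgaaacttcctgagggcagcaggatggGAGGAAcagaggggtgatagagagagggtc
Axl: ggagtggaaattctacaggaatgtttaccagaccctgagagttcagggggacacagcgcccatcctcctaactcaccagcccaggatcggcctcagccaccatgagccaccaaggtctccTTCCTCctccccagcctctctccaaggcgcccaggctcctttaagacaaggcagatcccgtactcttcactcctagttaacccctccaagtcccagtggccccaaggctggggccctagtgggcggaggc
Mertk: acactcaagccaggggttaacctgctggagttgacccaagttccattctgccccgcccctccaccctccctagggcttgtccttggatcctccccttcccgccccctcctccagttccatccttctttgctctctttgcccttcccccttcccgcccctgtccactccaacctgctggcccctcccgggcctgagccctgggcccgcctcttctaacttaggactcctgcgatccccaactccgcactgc
Cd68: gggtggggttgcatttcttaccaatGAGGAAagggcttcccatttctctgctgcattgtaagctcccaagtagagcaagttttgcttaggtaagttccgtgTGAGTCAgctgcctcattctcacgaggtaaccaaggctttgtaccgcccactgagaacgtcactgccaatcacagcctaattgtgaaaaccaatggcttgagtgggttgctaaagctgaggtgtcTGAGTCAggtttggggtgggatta
GAGGAA was matched in 4 of the 6 windows found (C1qb, Axl and Cd68 as shown, and C1qc), and is held by 23.3% of all 32851 promoter windows of this length. Cd68 had 2 matches to TGANTCA, which 6.75% of the windows hold. C1qb had 1 match to TGACNNNGC, which 10.2% hold. No match of the 3 motifs was found in the Mertk and Spic windows. These matches describe letters in a short window, and the libraries hold no measure of binding.

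**Figure D1:**
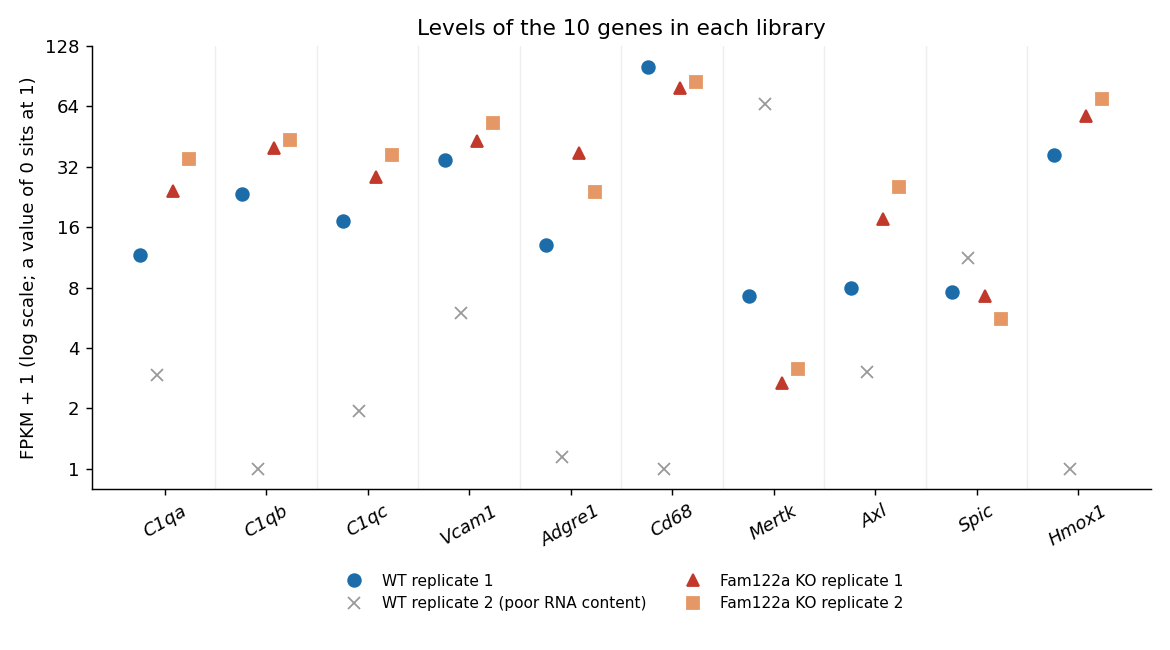
FPKM + 1 on a log scale for each of the 10 genes, with 1 point per library (WT replicates 1 and 2, Fam122a KO replicates 1 and 2). Both KO points lie above the WT replicate 1 point for 7 genes and below it for Cd68, Mertk and Spic (for Mertk alone after scaling to equal Ensembl totals), and WT replicate 2 is far from the other 3 libraries for most genes.

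C1qa, C1qb and C1qc encode the 3 chains of C1q, the recognition protein that starts the classical complement pathway and marks dying cells for uptake. They lie side by side on chromosome 4 in GENCODE M21 (GRCm38), all on the minus strand: C1qb from 136880129 to 136886187, C1qc from 136889804 to 136893065 and C1qa from 136895917 to 136898803. C1qa was at 10.6 FPKM in WT replicate 1 and at 23.3 and 34.1 FPKM in KO. C1qb was at 22.4 FPKM in WT replicate 1 and at 38.7 and 42.4 FPKM in KO. C1qc was at 16.1 FPKM in WT replicate 1 and at 27.3 and 35.7 FPKM in KO. In each case both KO libraries were above WT replicate 1, and KO replicate 2 was the highest.

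Summed, the trio was at 49.1 FPKM in WT replicate 1 and at 89.3 and 112 FPKM in KO. The split between chains was similar in these libraries: C1qb held 45.6% of the sum in WT replicate 1 and 43.3% and 37.8% in KO, C1qc 32.8% against 30.6% and 31.8%, and C1qa 21.6% against 26.1% and 30.4%. C1qb was the most abundant chain and C1qa the least in all 3. On the log2(FPKM + 1) scale the difference between KO and WT replicate 1 was 1.33 for C1qa (95% interval -0.25 to 2.92, adjusted p = 0.166). For C1qb it was 0.83, with an interval of 0.32 to 1.33 and an adjusted p of 0.0902. For C1qc it was 0.91 (interval -0.23 to 2.05, adjusted p = 0.174). The C1qb interval alone of the 3 lay above 0, and its KO libraries were the closest to each other, but after adjustment over all genes it did not pass.

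Vcam1, Adgre1 and Cd68 are the general surface and lysosome markers of the group. Vcam1 encodes the adhesion protein that binds the integrin VLA-4 on erythroblasts and stem cells, and stromal and endothelial cells make it too. It was at 33.6 FPKM in WT replicate 1 and at 42.1 and 51.6 FPKM in KO (chromosome 3, 116109949 to 116129688). Both KO libraries were above WT replicate 1, by 1.25 and 1.54 times, and the log2 difference of 0.46 did not pass (interval -0.42 to 1.34, adjusted p = 0.263). Of the 17 stromal and endothelial markers, 9 of the 13 tested had both KO libraries below WT replicate 1 and 2 passed as lower, against 46.2% and 12.9% of all genes tested. These were Kitl, the stem cell factor gene (50.9 FPKM in WT replicate 1 against 1.58 and 1.3 FPKM, adjusted p = 0.0301), and Col3a1, a collagen gene (2.36 against 0.03 and 0.09 FPKM, adjusted p = 0.0178). Neither passed with a pseudocount of 0.1 (adjusted p = 0.0686 and 0.0850), nor did Col3a1 with quantile normalization (0.0793) or among coding genes of short span (0.0644), and Col3a1 was not tested with 1 FPKM required in 2 of 3 libraries. The markers summed to 157 FPKM in WT replicate 1, against 69.2 and 64.1 FPKM in KO. Kitl and Tek, the latter at 41.5 against 4.43 and 2.74 FPKM, made up nearly all of that gap. Tek is also among the stem cell markers. Of the stromal and endothelial markers tested, 3 had both KO libraries above WT replicate 1. The part of these markers in the Vcam1 values was not tested.

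Adgre1 encodes F4/80, the classical surface marker of mouse tissue macrophages. It was at 12.1 FPKM in WT replicate 1 and at 36.4 and 22.9 FPKM in KO (chromosome 17, 57358691 to 57483527). Both KO libraries were above WT replicate 1, and here KO replicate 1 was the higher of the pair. This was the widest gap within the KO pair among the 10 genes on the log2 scale (KO replicate 2 minus KO replicate 1, -0.64), and the difference of 1.19 had an interval from -0.70 to 3.08 (adjusted p = 0.218). Cd68, a lysosomal membrane protein of monocytes as well as macrophages, was the most abundant of the 10 genes in WT replicate 1 and both KO libraries. It was at 99.1 FPKM in WT replicate 1 and at 78.4 and 83.8 FPKM in KO (chromosome 11, 69664213 to 69666153). Both KO libraries were below WT replicate 1, by a log2 difference of -0.29 (interval -0.66 to 0.09, adjusted p = 0.181). The summed C1q level was thus 0.495 of the Cd68 level in WT replicate 1 and 1.14 and 1.34 of it in KO.

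Mertk and Axl encode 2 of the 3 TAM receptor kinases, which bind dying cells through the bridging proteins GAS6 and protein S. Their differences had opposite signs. Axl was at 6.94 FPKM in WT replicate 1 and at 16.5 and 24.5 FPKM in KO (chromosome 7, 25757273 to 25788705). Mertk was at 6.30 FPKM in WT replicate 1 and at 1.69 and 2.14 FPKM in KO (chromosome 2, 128698956 to 128802894). Both KO libraries were above WT replicate 1 for Axl, as for 40.1% of all genes tested, and below it for Mertk, as for 46.2%. The Axl to Mertk ratio was 1.10 in WT replicate 1 and 9.75 and 11.4 in KO, but 0.0315 in WT replicate 2, so the WT libraries differed more from each other in this ratio than WT replicate 1 did from KO.

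For Axl the log2 difference was 1.41 (interval -0.26 to 3.08, adjusted p = 0.165), the highest of the 10 genes. For Mertk it was -1.33 (interval -2.18 to -0.48, adjusted p = 0.0942), the lowest. By estimated fragments these values rest on 141 in WT replicate 1 and 538 and 699 in KO for Axl, and on 109 against 47.2 and 52.2 for Mertk. Tyro3, the other receptor of the family, was at 0.14 FPKM in WT replicate 1 and at 0.77 and 0.66 FPKM in KO. The ligand genes Gas6 and Pros1 were at 2.24 and 6.14 FPKM in WT replicate 1, and in KO at 4.14 and 6.93 FPKM for Gas6 and 5.90 and 4.18 FPKM for Pros1.

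Spic and Hmox1 stand for the heme branch. Spic encodes SPI-C, a PU.1 relative that heme induces and that red pulp and marrow macrophages need. It was at 6.61 FPKM in WT replicate 1 and at 6.28 and 4.59 FPKM in KO (chromosome 10, 88674772 to 88685015). KO replicate 1 was close to WT replicate 1, at a ratio of 0.95, and the log2 difference of -0.25 had an interval from -1.64 to 1.13 (adjusted p = 0.603). Hmox1 encodes heme oxygenase 1, which opens the heme ring and frees its iron. It was at 35.7 FPKM in WT replicate 1 and at 56.2 and 68.7 FPKM in KO (chromosome 8, 75093621 to 75100589). Both KO libraries were above WT replicate 1, and the log2 difference was 0.78 (interval -0.08 to 1.65, adjusted p = 0.155). Neither difference passed, and the sign for Spic was not stable: it was 0.22 with quantile normalization and -0.05 with libraries scaled to equal Ensembl totals.

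**Figure D2:**
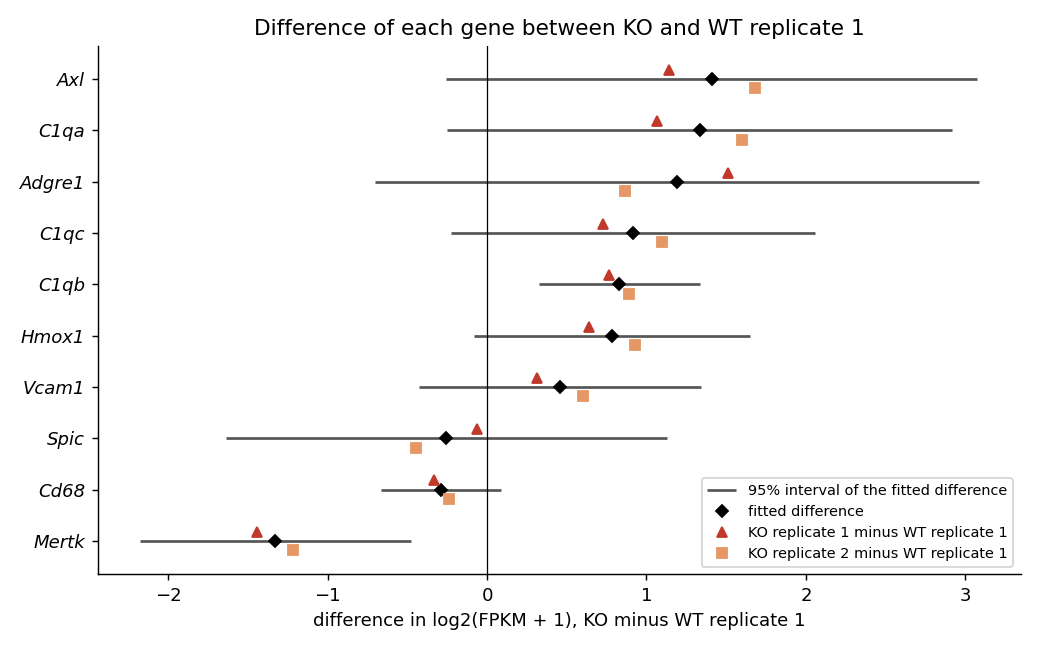
Difference in log2(FPKM + 1) between KO and WT replicate 1 for each gene, with the fitted value (diamond), its 95% interval (line) and each KO library minus WT replicate 1 (triangle and square). Axl stands highest at 1.41 and Mertk lowest at -1.33, and only the intervals of C1qb and Mertk leave out 0.

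By level per length, the order of the 10 genes was alike in WT replicate 1 and the KO libraries. Cd68, Hmox1, Vcam1 and C1qb were the first 4 in all 3 libraries, and Spic and Mertk were the last 2. In KO the means were 81.1 ± 3.78 FPKM for Cd68, 62.5 ± 8.85 FPKM for Hmox1, 46.9 ± 6.77 FPKM for Vcam1 and 40.5 ± 2.60 FPKM for C1qb (SD, n = 2 each). Cd68, Hmox1 and Vcam1 did not overlap with each other in KO, whereas Vcam1 overlapped C1qb. Adgre1, C1qc and C1qa overlapped among themselves, at means of 29.7 ± 9.54, 31.5 ± 5.92 and 28.7 ± 7.64 FPKM (SD, n = 2). Spic at 5.44 ± 1.20 and Mertk at 1.92 ± 0.318 FPKM (SD, n = 2) lay below the other 8 genes and apart from each other.

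Of the 10 genes, 7 had both KO libraries above WT replicate 1, as did 40.1% of the 16580 genes tested and 45.9% of the 13398 coding genes among them. The other 3 had both below, as did 46.2% and 40.3%, but when the libraries were scaled to equal totals over Ensembl genes only Mertk of the 3 still did. C1qa and Axl were at least 2 times WT replicate 1 in both KO libraries, which 7.32% of the genes tested were. Mertk was at most 0.5 times WT replicate 1 in both, which 23.9% were. The median log2 difference of the 10 genes was 0.81, against -0.063 over all genes tested.

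These shares depend on how much intron a gene spans. The 3260 coding genes with a genomic span over 16 times the exonic length had a median level of 7.21 FPKM in WT replicate 1, of 27.5 FPKM in WT replicate 2, and of 0.91 and 1.02 FPKM in KO. Among those tested, 71.0% had both KO libraries below WT replicate 1 and 18.5% had both above. Mertk, with a span 24.0 times its exonic length, lay with the 71.0%. Adgre1, at 38.6 times, lay with the 18.5%. Among coding genes with a span under 4 times their exonic length, 58.5% had both KO libraries above WT replicate 1, and of the 6 such genes of the group 4 did (C1qa, C1qc, Vcam1 and Hmox1), a share near that background. Cd68 and Spic, the other 2, lay with the 27.7% whose KO libraries were both below. The median log2 difference was 0.28 over the coding genes tested in this class and 0.62 over the 6 genes of the group in it. For C1qb and Axl, with spans 5.57 and 6.25 times their exonic length, the share with both KO libraries above was 46.9% in their class. The part of gene span in the Mertk difference was not tested.

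**Figure D3:**
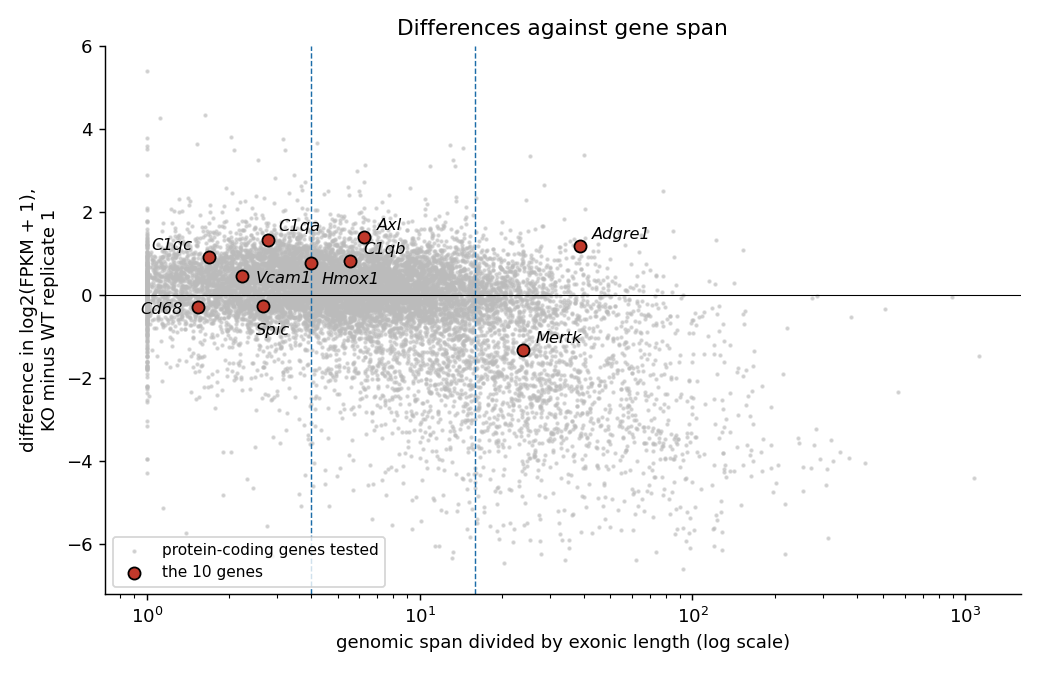
Difference in log2(FPKM + 1) between KO and WT replicate 1 against genomic span divided by exonic length (log scale) for the protein-coding genes tested (grey) and the 10 genes (red). Dashed lines mark 4 and 16 times. Grey points spread downwards at long spans, where Mertk lies below 0 and Adgre1 above it.

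In WT replicate 2 the genes of the group followed another order. C1qb, Cd68 and Hmox1 were at 0, where 3 fragments would have given 1.38, 1.16 and 0.793 FPKM. C1qa was at 1.93, C1qc at 0.95 and Adgre1 at 0.14 FPKM, values that rest on an estimated 3.96, 4.01 and 1.04 fragments. Vcam1 was at 4.98 and Axl at 2.05 FPKM. Mertk at 65.1 FPKM and Spic at 10.3 FPKM were higher than in any other library. Set against this library alone, 9 of the 10 genes passed, 8 as higher and Mertk as lower in KO, as did 32.1% (higher) and 46.1% (lower) of the 21932 genes then tested. Cd68 turned from lower to higher in KO in that comparison (log2 difference 6.36). With all 4 libraries in the fit, 0 of 20433 genes passed (limma), with an unadjusted p under 0.05 for 118 on the higher and 2364 on the lower side and for 0 of the 10 genes. The adjusted p of the 10 genes ran from 0.418 to 0.690.

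Other genes of resident macrophages lay on both sides of WT replicate 1. Of 22 such markers 17 were tested and 0 passed (limma, 5 at an unadjusted p under 0.05, against 35.1% of all genes tested). In both KO libraries 10 were above and 5 below WT replicate 1, against 40.1% and 46.2% of all genes tested. The median log2 difference was 0.34. Cd163, the scavenger receptor for haemoglobin, was at 12.7 FPKM in WT replicate 1 and at 37.0 and 15.9 FPKM in KO. Vsig4, Marco, Clec4f and Folr2, markers of macrophages settled in tissues, were all at 0 in WT replicate 1, where 3 fragments would have given 0.317 to 0.569 FPKM, and between 0.37 and 1.43 FPKM in KO. Only Folr2 had both KO libraries more than 2 times above that floor (0.542 FPKM for its length). All 4 were below the filter. Without it 2 of the 22 markers passed (limma), both as higher, Folr2 (adjusted p = 0.0266) and Pld3 (0.0215). Of the 30258 genes then tested, 2.52% passed as higher and 30.6% as lower. Pld3, a lysosomal nuclease, was at 26.7 against 49.9 and 49.6 FPKM (log2 difference 0.87, adjusted p = 0.0543). Trem2, a lipid-sensing receptor, was at 6.15 against 1.74 and 1.40 FPKM (-1.48, adjusted p = 0.0740). Cx3cr1, the fractalkine receptor of monocytes and macrophages, was at 30.1 against 8.22 and 5.93 FPKM (-1.96, adjusted p = 0.102).

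In the main comparison, heme and iron handling genes centred near 0. Of 22 tested, 0 passed as higher and 1 as lower, against 0.814% and 12.9% of all genes tested. In both KO libraries 12 were above and 7 below WT replicate 1, against 40.1% and 46.2% of all genes tested. The median log2 difference was 0.15. Slc40a1, the iron exporter ferroportin, was at 52.4 FPKM in WT replicate 1 and at 55.0 and 87.3 FPKM in KO. The ferritin genes Fth1 and Ftl1, which store iron, were at 2315 and 2150 FPKM in WT replicate 1, and at 2111 and 2362 FPKM for Fth1 and 2368 and 1623 FPKM for Ftl1 in KO. Flvcr2, a membrane transporter, fell from 2.50 to 0.51 and 0.59 FPKM (log2 difference -1.18, adjusted p = 0.0298). It was at 31.0 FPKM in WT replicate 2. It did not pass with a pseudocount of 0.1 (adjusted p = 0.0780) or with quantile normalization, where its log2 difference turned to 0.087 (adjusted p = 0.297), and it was not tested with 1 FPKM required in 2 of 3 libraries. Lrp1, an endocytic receptor that also takes up heme bound to hemopexin, was at 2.88 against 10.4 and 9.23 FPKM (1.47, adjusted p = 0.0961). Cp, the copper enzyme that oxidises exported iron, was at 1.96 against 0.34 and 0.64 FPKM (adjusted p = 0.121).

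In the list of genes for uptake of dying cells, 20 were tested, with a median log2 difference of 0.11. Of these, 0 passed as higher and 1 as lower, against 0.814% and 12.9% of all genes tested. The gene that fell was Megf10, an engulfment receptor, at 12.9 FPKM in WT replicate 1 and at 0.20 and 0 FPKM in KO (adjusted p = 0.0291). In WT replicate 2 it was at 125 FPKM. It did not pass with a pseudocount of 0.1 or 0.5 (adjusted p = 0.132 and 0.0527) and was not tested with 1 FPKM required in 2 of 3 libraries. Stab2, a scavenger receptor of sinusoidal endothelium, was at 2.63 against 1.28 and 1.45 FPKM (-0.62, adjusted p = 0.0984). Of the other complement components and receptors 18 were tested, with a median of 0.22. Here too 0 passed as higher and 1 as lower, against the same shares of all genes tested. That gene was C6, a terminal component, which fell from 25.2 to 2.03 and 1.75 FPKM (-3.18, adjusted p = 0.0412) and was at 87.1 FPKM in WT replicate 2. It did not pass with a pseudocount of 0.1 or 0.5 (adjusted p = 0.0874 and 0.0565). Cd46, a membrane regulator of complement, was at 0.16 FPKM in WT replicate 1, 4.06 and 5.06 FPKM in KO and 462 FPKM in WT replicate 2 (2.26, adjusted p = 0.0562). Cfb, a factor of the alternative pathway, was at 0.88 against 2.05 and 1.93 FPKM (0.67, adjusted p = 0.0676). C3, the central component, was at 110 FPKM in WT replicate 1 and at 128 and 122 FPKM in KO. Flvcr2, Megf10 and C6, the 3 genes that fell in these lists, thus had their top level in WT replicate 2, as Mertk did. Their genomic spans were 19.1, 21.3 and 24.7 times the exonic length. Of coding genes tested with a span over 16 times, 71.0% had both KO libraries below WT replicate 1. In that class 75.0% were highest in WT replicate 2. The part of gene span and of the signal of WT replicate 2 in the fall of the 3 genes was not tested.

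Partners of the macrophage in the erythroblast island were on the higher side. Of 14 tested 0 passed (limma, 5 at an unadjusted p under 0.05, against 35.1% of all genes tested). In both KO libraries 11 were above and 1 below WT replicate 1, against 40.1% and 46.2% of all genes tested. The median log2 difference was 0.57. Itga4, the alpha chain of the VLA-4 receptor for VCAM1, was at 22.0 FPKM in WT replicate 1 and at 39.3 and 44.3 FPKM in KO (0.90, adjusted p = 0.0982). Its partner chain Itgb1 was at 58.5 against 68.7 and 57.2 FPKM. Icam4, an erythroblast adhesion protein, was at 12.7 against 15.4 and 34.9 FPKM. Icam1, a ligand of leukocyte integrins, was at 14.9 against 23.7 and 26.6 FPKM (0.72, adjusted p = 0.127). Palld, a cytoskeletal scaffold, was at 25.9 against 4.76 and 6.79 FPKM (-2.01, adjusted p = 0.107).

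The 16 regulators of the PU.1 family and of heme response had a median of 0.36. Of these, 1 passed as higher and 0 as lower, against 0.814% and 12.9% of all genes tested. Irf8, a transcription factor of monocytes, dendritic cells and early B cells, rose from 45.2 to 92.6 and 92.2 FPKM (log2 difference 1.01, adjusted p = 0.0373). It did not pass with 1 FPKM required in 2 of 3 libraries (adjusted p = 0.0720) or among coding genes of short span (0.0955). Spi1, the PU.1 gene, was at 169 FPKM in WT replicate 1 and at 247 and 190 FPKM in KO, and Spib at 9.75 against 25.6 and 33.6 FPKM. Bach1, the repressor that heme removes from Hmox1, was at 5.75 against 8.82 and 6.11 FPKM, and Nfe2l2, the NRF2 activator, at 60.0 against 57.0 and 58.4 FPKM. Keap1, the inhibitor of NRF2, was at 19.7 against 41.6 and 41.1 FPKM (1.03, adjusted p = 0.0509). Nr1h2, a liver X receptor, was at 31.7 against 79.7 and 88.0 FPKM (1.37, adjusted p = 0.0526).

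**Figure D4:**
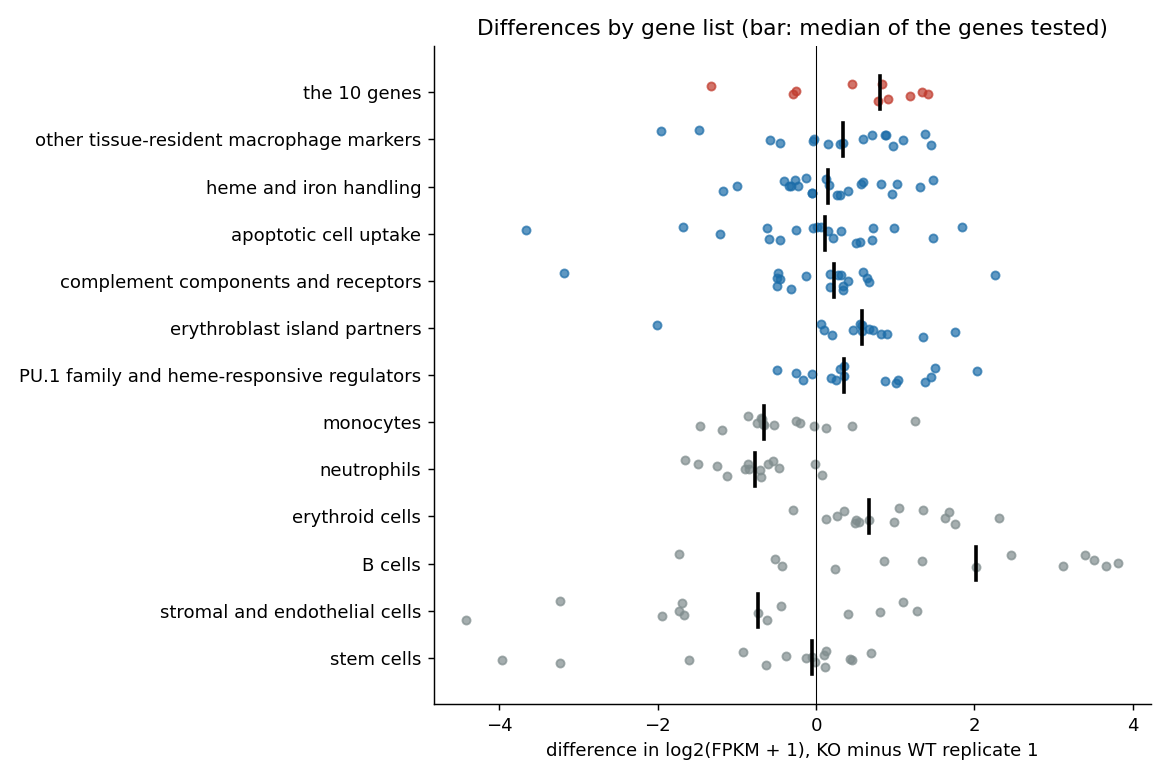
Difference in log2(FPKM + 1) between KO and WT replicate 1 for the tested genes of each list (points), with the list's median (bar). Red marks the 10 genes, blue the related lists and grey markers of other cell types. The bar of the 10 genes stands at 0.81, monocyte and neutrophil bars lie below 0, and erythroid and B cell bars above it.

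Markers of other blood cells differed between the libraries as well. Over all genes tested, 40.1% had both KO libraries above WT replicate 1 and 46.2% had both below. An unadjusted p under 0.05 (limma) was found for 35.1%. Of 15 monocyte markers 0 passed (limma, 1 at an unadjusted p under 0.05), 9 were below and 3 above WT replicate 1 in both KO libraries, with a median log2 difference of -0.66. That median was -0.27 without KO replicate 2 and turned to 1.48 with all 4 libraries. They summed to 21001 FPKM in WT replicate 1, against 14844.5 and 11554.5 FPKM in KO, none at 0 in these libraries. The 14 neutrophil markers had a median of -0.77, with 13 below, and it turned to 3.25 with all 4 libraries. The 15 erythroid markers had a median of 0.66 and sums of 52298 against 60352 and 80546.5 FPKM, with 13 above and none below, and the median was 0.36 without KO replicate 2. The 13 B cell markers had a median of 2.02, with 10 above and 3 below (Ms4a1, Igkc and Ighm). They summed to 5898 FPKM in WT replicate 1 against 4597 and 7456 FPKM in KO, on both sides of it. Igkc and Ighm held most of each of these sums, with Igkc alone at 4768 against 2498 and 4413 FPKM. None of these neutrophil, erythroid and B cell markers passed either (limma, 1, 0 and 8 at an unadjusted p under 0.05). By their medians, monocyte markers thus lay on the side of Cd68, and erythroid and B cell markers on the side of C1q, Adgre1, Axl and Hmox1. The part of these cell types in the values of the 10 genes was not tested.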

How the data were processed

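The deposited files give 1 value for each of 87703 features without a header. The authors' values were taken as FPKM, which was inferred from the values. HISAT2 2.1.0, STAR 2.7.1a and bcl2fastq and the builds mm10 and GRCm38.p5 stand in the submitters' processing notes, without roles. The SMART-Seq v4 kit marks no strand. Of the features, 35791 loci without a gene name stayed out. Symbols, coordinates and lengths came from GENCODE M21 (GRCm38). Where Vcam1 overlaps the antisense gene Gm43109, that gene was at 0.46 FPKM or less.

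The KO libraries were set against WT replicate 1 with limma 3.58.1 (R 4.3.3, intensity trend) on log2(FPKM + 1), which understates changes of low genes. Genes needed a mean of at least 1 FPKM over the WT replicate 1 value and the KO mean, and Benjamini-Hochberg adjusted p was called under 0.05. All 10 genes passed this filter. The fit was tested on simulated data drawn with the spread of the KO pair. Changes of 1, 2, 3 and 4 log2 units were placed in 50 genes each, and 14%, 68%, 90% and 98% of them were recovered. All were placed in genes with a mean log2(FPKM + 1) above 3 in the KO pair. Mertk and Spic lie below that level, so these rates do not cover them. There were 27 false calls among 13345 genes, a larger share of the calls made there than the threshold of 0.05 aims for. Genes named besides the 10 were Fam122a, the up to 3 list members with the smallest p and all that passed, except for marker lists of other cells, and some others chosen by role after their values were seen. The genes and lists were chosen with earlier results of these data known. Fragment numbers were estimated from the steps of low values in single-exon genes, where 83.3% to 89.8% lay within 0.1 of a whole number, and cover counting error only. Nothing but the label of biological replicates shows what separates the pools, and p-values of the main comparison measure only the spread between the KO libraries.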

Additional observations from a re-analysis of the deposited data

Results flagged for a closer look

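Signal for Mertk and Spic stood out in WT replicate 2, the library that the main comparison does not use. Mertk was at 65.1 FPKM there, above the 6.30 FPKM of WT replicate 1 and the 1.69 and 2.14 FPKM of KO. Spic was at 10.28 FPKM, above 6.61 FPKM in WT replicate 1 and the 6.28 and 4.59 FPKM of KO. Among coding genes tested, 75.0% of those with a span over 16 times their exonic length, as in Mertk, were highest in WT replicate 2, against 9.13% of those with a span under 4 times, as in Spic.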

How the results depend on the processing

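In the main comparison 135 genes passed as higher and 2132 as lower in KO. These counts were 0 and 0 with all 4 libraries, with or without the replicate block, and in coding genes of short span (limma, with 118 and 2364, 191 and 1932, and 1179 and 418 at an unadjusted p under 0.05). They were 25 and 196 with 1 FPKM in 2 of 3 libraries, 761 and 9265 without a filter and 53 and 1160 with a pseudocount of 0.1. Scaling to equal Ensembl totals gave 269 and quantile normalization 536 higher genes. With WT replicate 2 in place of WT replicate 1 they were 7035 and 10109, and 9 of the 10 genes passed (adjusted p of Spic 0.138). None of the 10 passed in any other setting that allows a test. With 1 FPKM in 2 of 3 libraries, 7 of the 10 had an unadjusted p under 0.05 (limma). Of the 13848 genes tested there, 2436 did on the higher and 1596 on the lower side. Cd68 turned to 3.04 with all 4 libraries, also with the replicate block, and to 6.36 with WT replicate 2 in place of WT replicate 1. Spic turned to 0.22 with quantile normalization. Scaling to equal totals left 1 gene, Mertk, with both KO libraries below WT replicate 1. With 1 library left out the log2 differences ran from 1.07 to 3.32 for C1qa, 0.76 to 5.37 for C1qb, 0.73 to 4.05 for C1qc, 0.31 to 2.99 for Vcam1 and 0.87 to 4.71 for Adgre1. They ran from -0.33 to 6.36 for Cd68, -4.51 to -1.22 for Mertk, 1.14 to 2.79 for Axl, -0.82 to -0.06 for Spic and 0.64 to 5.98 for Hmox1. The cause of these moves was not tested. Scaling to equal totals, by median ratio and quantile normalization moved the median of all genes by 0.21, -0.14 and 0.23. By median ratio the medians of the heme and uptake lists were -0.01 and -0.04. They were 0.37 and 0.33 with equal totals, and 0.28 and 0.38 with quantile normalization. Leaving out a KO library leaves 1 against 1 and gives no test. Same-numbered libraries deviated together at a correlation of 0.0553 over 18214 genes, so the numbers were not taken as pairs.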
